A study of Mus musculus with 40 samples.

Results

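The transcriptome of the rib of skeletally immature mice was compared with that of mature mice at 0dpr, the day on which the rib was resected (dpr, days post-resection). The comparison took 8 of the 40 samples of the series by their age and stage labels, 4 immature and 4 mature, and covered every gene of the filtered count table. All mice were wild type, female and of the C57BL/6 strain. Immature mice were 7 weeks old and mature mice were over 10 months old. Each 0dpr sample was labelled as callus taken on the resection day, and was a piece of the rib cage with bone and intercostal muscle, ground whole before total RNA was extracted. No treatment beyond the resection is labelled. The labels number the samples of a group as replicates but do not say that each came from its own mouse. The p-values therefore measure the spread between samples within groups, estimated over all groups of the series. The other groups of the series were unresected rib (baseline) and callus at 2, 5 and 14dpr at both ages, and served here to estimate the spread and to show the same genes at other stages.

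A rib consists of mineralized bone with marrow inside, periosteum and attached muscle, tendon, nerve and fat. In a growing skeleton, periosteal cells, fibroblasts and tenocytes secrete fibrillar collagens, elastic fibres, proteoglycans and adhesive glycoproteins, and extracellular enzymes trim and crosslink these proteins into a lasting matrix. Synthesis of this matrix slows after growth ends, whereas antibody-secreting cells accumulate in the marrow with age. In ground composite tissue, fewer cells of a type and less RNA per cell cannot be told apart.

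The 8 libraries held 6989381 to 13862053 counts. Genes of the expected tissues were read in all of them, and the summed level of 20 fast muscle genes was 70093 to 148110 CPM in the immature and 79644 to 163900 CPM in the mature libraries (CPM, read counts scaled to library size with trimmed mean of M-values, TMM, factors). Immature replicate 1 held liver transcripts: its 32 liver genes summed to 14875 CPM, against 380 to 431 CPM in the other immature libraries and 300.1 to 930 CPM in the mature ones. Alb, which encodes the serum protein albumin, was at 4704, 2.71, 3.10 and 4.45 CPM in immature replicates 1 to 4 and at 156, 264, 16.3 and 13.3 CPM in mature replicates 1 to 4, so the remaining immature libraries held less of it than every mature library. Immature replicate 1 also had the highest sum over 27 immediate early genes (2845 CPM, against 878 to 1514 CPM in the other 7 libraries) and the lowest sum over 20 erythroid genes (4291 CPM, against 14092 to 27928 CPM). Immature replicate 3 had 674 CPM over 26 osteoblast and osteocyte genes, where the other immature libraries had 1411 to 1916 CPM and the mature libraries 594 to 1019 CPM. Results are therefore given with all 8 libraries and without immature replicate 1.

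More genes were higher than lower in immature mice. Of 21204 genes tested with edgeR's quasi-likelihood test, 121 (0.571%) were higher in immature mice and 33 (0.156%) were lower at a Benjamini-Hochberg adjusted p below 0.05. Of the genes that were higher, 15 were collagens, and 106 were not. Of the genes that were lower, 15 were immunoglobulin genes, and 18 were not. The median log2 fold change (immature minus mature) was 1.07 among the genes that were higher and -0.02 over all genes tested. Every immature library lay above every mature library for 95 of the 121 genes, against 2.16% of all genes, and below every mature library for 19 of the 33, against 1.58% of all genes. Without immature replicate 1, 51 genes (0.241%) were higher and 17 (0.0802%) were lower. Of the 154 genes, 63 were past the threshold in both fits, and the sign was the same in both fits for 120 of the 121 and for all 33. Blocking on the replicate number gave 142 higher and 99 lower genes. A fit to the 8 libraries alone, without the other stages to estimate the spread, called 0 genes by edgeR (1288 at an unadjusted p below 0.05). Under each of the 8 fits that left out 1 library, 43 of the higher and 8 of the lower genes were called every time, and these included 7 collagens and 4 immunoglobulin genes.

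The genes described first were taken by a rule, under which 39 higher and 4 lower genes outside the collagens and immunoglobulins were past the threshold in both fits with no overlap between the ages. The lack of overlap is therefore part of how they were chosen. The 17 higher genes named from those with the smallest adjusted p or the largest fold comprised secreted growth regulators, matrix proteins and matrix enzymes, and the 4 that were lower comprised a muscle ankyrin repeat protein, a macrophage receptor, an apolipoprotein L and a secretoglobin. Of these 21 genes, 19 were called in all 8 fits that left out 1 library. The rule had already required a call in 1 of these fits, that without immature replicate 1. It also took the higher genes by adjusted p or fold, so this count follows in part from the choice. Tnmd lost the call without mature replicate 1, 2 or 3, and Scgb2b27 lost it without immature replicate 3 or 4 or without mature replicate 1, 3 or 4.

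**Figure D1:**
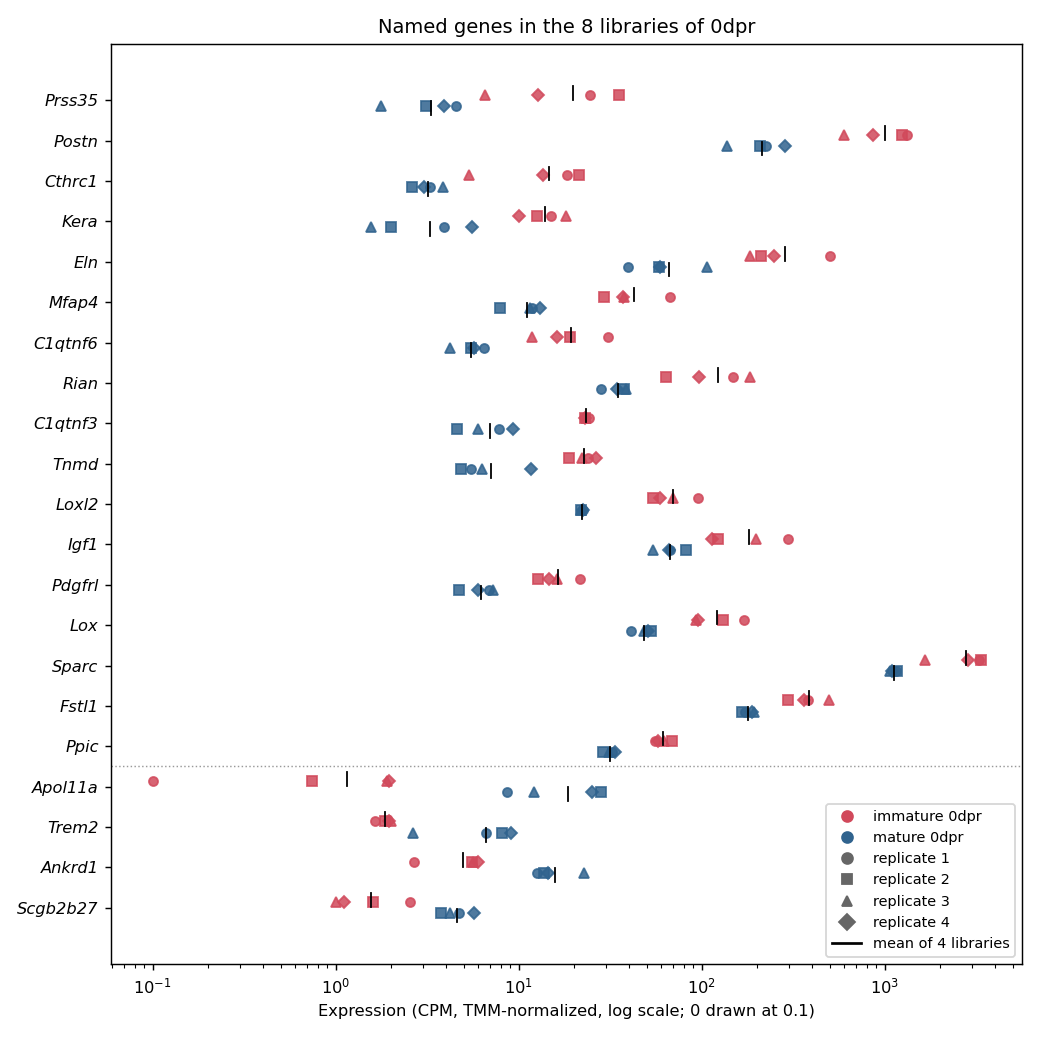
Expression of the 21 genes named by the rule in each of the 8 libraries of 0dpr, in TMM-scaled CPM on a log axis, with immature libraries in red, mature libraries in blue, 1 marker shape per replicate number and a bar at each group mean (n = 4 per age). For each gene the red and blue markers do not overlap, which the rule required. Apol11a had 0 reads in immature replicate 1, drawn at 0.1.

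Several of the named genes encode secreted or growth factor-related proteins, a grouping made after the genes were named. Igf1 (ENSMUSG00000020053, chromosome 10, 87858265 to 87937042 in GRCm38), which encodes insulin-like growth factor 1, was at 294, 123, 198 and 114 CPM in immature replicates 1 to 4 and at 67.5, 81.6, 54.4 and 66.5 CPM in mature replicates 1 to 4 (log2 fold change 1.43, SE 0.20, adjusted p = 7.51e-05). The highest Igf1 value was that of immature replicate 1, the library with liver transcripts, and liver is a known source of this factor. Without that library the difference was 1.11, adjusted p = 9.41e-04. Fstl1, a follistatin-like secreted glycoprotein, was at 384 ± 83.8 CPM (mean ± SD, n = 4) in immature and 180.1 ± 13.7 CPM in mature libraries (log2 fold change 1.09, SE 0.17, adjusted p = 2.98e-04). Pdgfrl, a protein related to the ligand-binding part of platelet-derived growth factor receptors, was at 16.3 ± 3.82 CPM against 6.20 ± 1.11 CPM (log2 fold change 1.39, SE 0.20, adjusted p = 1.08e-04). The C1q/TNF-related secreted proteins C1qtnf3 and C1qtnf6 were both higher. C1qtnf3 was at 24.4, 22.9, 23.3 and 23.0 CPM in the immature libraries, with almost no spread, and at 7.84, 4.62, 5.98 and 9.31 CPM in the mature ones (log2 fold change 1.76, SE 0.33, adjusted p = 0.00273). C1qtnf6 was at 19.4 ± 8.04 CPM against 5.46 ± 0.924 CPM (log2 fold change 1.83, SE 0.27, adjusted p = 1.57e-04).

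Around these genes, the growth pathway lists held at most 2 calls each. Over all genes, 0.571% were called higher and 0.156% lower. In the insulin-like growth factor list, 2 of 23 genes were called, both higher, and all 23 had a positive log2 fold change, with a median of 0.45 that was 0.21 without immature replicate 1. The second was Igf2bp2, an RNA-binding protein that binds Igf2 mRNA, at 8.47 ± 3.25 CPM against 3.27 ± 0.370 CPM (log2 fold change 1.36, SE 0.25, adjusted p = 0.00279). In the transforming growth factor-β and bone morphogenetic protein list 2 of 46 were called, among them Fstl1. The fibroblast and platelet-derived growth factor list had 1 of 28, Pdgfrl, and the Wnt list 1 of 51, Dkk3, a secreted Dickkopf-family protein (log2 fold change 0.87, SE 0.22, adjusted p = 0.0437), whose adjusted p was 0.177 without immature replicate 1. None of 14 Hedgehog genes was called by edgeR or by DESeq2, and 3 had an unadjusted p below 0.05. Over all genes 48.0% had a positive log2 fold change, and 2278 of 21204 had an unadjusted p below 0.05 in either direction.

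Imprinted growth genes were represented by a cluster of maternally expressed noncoding RNAs. Rian (ENSMUSG00000097451, chromosome 12, 109603940 to 109661716), a long noncoding RNA of the Dlk1-Dio3 domain, was at 149, 63.5, 184 and 96.3 CPM in immature replicates 1 to 4 and at 28.1, 37.7, 38.7 and 34.6 CPM in mature replicates 1 to 4. The groups were separated, although the immature values themselves spread widely (log2 fold change 1.82, SE 0.25, adjusted p = 7.51e-05; without immature replicate 1, 1.72, adjusted p = 6.01e-04). Its neighbours Meg3 (log2 fold change 1.56, SE 0.32, adjusted p = 0.00897) and Mirg (log2 fold change 1.69, SE 0.37, adjusted p = 0.0146) were higher as well, and both fell short of the threshold without immature replicate 1, with adjusted p of 0.0971 and 0.126. The paternally expressed Peg3 (log2 fold change 0.82, SE 0.20, adjusted p = 0.0428) and the growth factor receptor adapter Grb10 (log2 fold change 0.66, SE 0.16, adjusted p = 0.0405) were called with 8 libraries and not without immature replicate 1 (adjusted p = 0.129 and 0.147). In all, 5 of 28 imprinted genes were higher (0.571% of all genes were), 1 without immature replicate 1. A positive log2 fold change was seen for 23 of 28, against 48.0% of all genes. How the counting treated strand is not given in the sources used here, so reads from antisense transcripts at these loci cannot be told apart.

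Elastic fibres and the enzymes that crosslink them formed the list with the largest share of called genes among the matrix lists. Of 23 genes tested, 7 were higher and none lower, where 0.571% of all genes were higher and 0.156% lower. Without immature replicate 1, 6 were higher. All 23 had a positive log2 fold change, against 48.0% of all genes, with a median of 0.56 (0.37 without immature replicate 1). The summed level was 1860.4 to 3405 CPM in the immature and 1242 to 1510.1 CPM in the mature libraries. Eln (ENSMUSG00000029675, chromosome 5, 134702593 to 134747323) encodes tropoelastin, the core of the elastic fibre, and was at 500.3, 211, 183 and 249 CPM in immature replicates 1 to 4 and at 39.5, 58.8, 107 and 58.9 CPM in mature replicates 1 to 4. Immature replicate 1 was the highest and mature replicate 3 came closest to the immature range (log2 fold change 2.11, SE 0.32, adjusted p = 2.23e-04; without immature replicate 1, 1.71, adjusted p = 0.00324). Mfap4, a microfibril-associated glycoprotein, was at 42.8 ± 16.8 CPM against 11.1 ± 2.23 CPM (log2 fold change 1.95, SE 0.25, adjusted p = 2.22e-05). The fibrillins, which form the microfibril scaffold, were higher for Fbn1 (log2 fold change 1.25, SE 0.22, adjusted p = 0.00184) and for Fbn2 (log2 fold change 1.85, SE 0.39, adjusted p = 0.0109), and the latter had an adjusted p of 0.0814 without immature replicate 1. Mfap5, another microfibril protein, was also higher (log2 fold change 1.00, SE 0.21, adjusted p = 0.00910).

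The crosslinking oxidases of that list showed tight mature values. Lox (ENSMUSG00000024529, chromosome 18, 52516067 to 52529867), which oxidizes lysines of collagen and elastin, was at 169, 130.3, 92.6 and 95.7 CPM in the immature and at 41.3, 52.6, 48.1 and 50.8 CPM in the mature libraries (log2 fold change 1.34, SE 0.18, adjusted p = 2.87e-05; without immature replicate 1, 1.15, adjusted p = 4.60e-04). Loxl2 (ENSMUSG00000034205, chromosome 14, 69609068 to 69695834), a second member of the same enzyme family, was at 95.9, 53.9, 69.6 and 59.0 CPM in the immature libraries. Its mature values were 22.4, 21.8, 21.9 and 22.4 CPM, so that the immature spread was far wider than the mature one (log2 fold change 1.65, SE 0.24, adjusted p = 1.34e-04; without immature replicate 1, 1.47, adjusted p = 0.00142).

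Of 32 genes for matricellular and adhesive glycoproteins, 5 were higher (0.571% of all genes were), 3 without immature replicate 1, and none lower. Postn (ENSMUSG00000027750, chromosome 3, 54361109 to 54391037) encodes periostin, a protein of periosteum and other load-bearing connective tissue, and was at 1321, 1248, 596 and 866 CPM in immature replicates 1 to 4 and at 224, 208, 138 and 285 CPM in mature replicates 1 to 4. The lowest immature value was that of replicate 3, whose bone gene sum was low; the part of that sum in the value was not tested (log2 fold change 2.24, SE 0.36, adjusted p = 6.34e-04; without immature replicate 1, 2.09, adjusted p = 0.00449). Sparc, a collagen-binding glycoprotein of bone matrix, was at 3257, 3361, 1654 and 2839 CPM against 1150.3, 1167, 1068 and 1101 CPM (log2 fold change 1.31, SE 0.20, adjusted p = 2.97e-04). Cthrc1, a secreted protein with a collagen triple helix repeat, was at 14.7 ± 7.01 CPM against 3.21 ± 0.525 CPM (log2 fold change 2.17, SE 0.35, adjusted p = 6.34e-04). Thbs3, a thrombospondin (log2 fold change 0.78, SE 0.18, adjusted p = 0.0279), and Tnn, a tenascin (log2 fold change 1.77, SE 0.44, adjusted p = 0.0429), were called with 8 libraries and not without immature replicate 1 (adjusted p = 0.1003 and 0.218). The summed level of the list was 5801 to 12576 CPM in the immature and 4548 to 4988 CPM in the mature libraries, highest in immature replicate 1.

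Of 26 genes for proteins that fold, trim and assemble collagen, 6 were higher (0.571% of all genes were), 3 without immature replicate 1. All 26 had a positive log2 fold change, against 48.0% of all genes (median 0.45, or 0.41 without immature replicate 1). Fkbp7, a prolyl isomerase of the endoplasmic reticulum, was at 27.9, 28.8, 20.4 and 23.6 CPM against 12.1, 12.8, 11.97 and 14.9 CPM, with no overlap between the ages (log2 fold change 0.96, SE 0.17, adjusted p = 0.00184). Adamts2, which removes the amino propeptide of procollagen, was at 175, 118, 89.4 and 143 CPM against 90.8, 63.4, 60.8 and 63.9 CPM. Mature replicate 1 overlapped the lowest immature library for this gene (log2 fold change 0.91, SE 0.16, adjusted p = 0.00184). Pcolce, which enhances removal of the carboxy propeptide, was higher in both fits (log2 fold change 0.68, SE 0.15, adjusted p = 0.0143). Fkbp10, Serpinh1 (the collagen chaperone HSP47) and Bmp1 (the procollagen carboxy proteinase) had log2 fold changes of 0.77, 0.76 and 0.75, with adjusted p of 0.0273, 0.0294 and 0.0338, and missed the threshold without immature replicate 1. Ppic (ENSMUSG00000024538, chromosome 18, 53406332 to 53418115), cyclophilin C, another prolyl isomerase and not a member of the list, was at 55.6, 69.0, 62.3 and 57.9 CPM in the immature and 32.2, 28.9, 31.2 and 33.8 CPM in the mature libraries, each within a narrow band (log2 fold change 0.96, SE 0.12, adjusted p = 2.22e-05; without immature replicate 1, 1.01, adjusted p = 4.67e-05).

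Among proteoglycans, 4 of 26 genes were higher (0.571% of all genes were), and 1 without immature replicate 1. That gene was Kera, which encodes keratocan, a small keratan sulfate proteoglycan, at 14.9, 12.6, 18.02 and 10.0 CPM against 3.92, 2.00, 1.55 and 5.56 CPM (log2 fold change 2.11, SE 0.41, adjusted p = 0.00386). Vcan (log2 fold change 1.16, SE 0.25, adjusted p = 0.0137), Lum (log2 fold change 0.85, SE 0.21, adjusted p = 0.0437) and Bgn (log2 fold change 0.78, SE 0.19, adjusted p = 0.0437), the core proteins versican, lumican and biglycan, had adjusted p of 0.0600, 0.0878 and 0.361 without immature replicate 1. For Bgn the ages overlapped, and its log2 fold change was 0.50 without that library.

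Of 40 extracellular metalloproteinases, related proteins and inhibitors, 7 were higher and none lower (0.571% and 0.156% of all genes were). Without immature replicate 1, 3 were higher, and 9 were higher with the replicate block. Mmp2 (gelatinase A) was at 409, 330.0, 201 and 311 CPM in the immature and 166, 127, 140.3 and 179 CPM in the mature libraries, with no overlap (log2 fold change 1.03, SE 0.17, adjusted p = 7.21e-04; without immature replicate 1, 0.89, adjusted p = 0.00885). Its membrane-bound activator Mmp14 was at 182, 121, 59.7 and 98.8 CPM against 49.3, 56.4, 48.3 and 65.7 CPM, and immature replicate 3 lay within the mature range (log2 fold change 1.07, SE 0.19, adjusted p = 0.00184; without immature replicate 1, 0.78, adjusted p = 0.0328). Adamts12 was higher in both fits (log2 fold change 0.95, SE 0.17, adjusted p = 0.00184). Adamtsl2, Adamts4, Adamts10 and the inhibitor Timp1 were called with 8 libraries and not without immature replicate 1, with adjusted p of 0.113, 0.0622, 0.215 and 0.143 there. Prss35, a serine protease-like secreted protein that stands in no list, had the largest log2 fold change of the 17 named genes, at 24.5, 35.3, 6.55 and 12.8 CPM against 4.55, 3.12, 1.77 and 3.89 CPM (log2 fold change 2.58, SE 0.47, adjusted p = 0.00184; without immature replicate 1, 2.48, adjusted p = 0.0109). Of 22 basement membrane genes 1 was called, Col15a1, whose adjusted p was 0.0581 without immature replicate 1, while 13 of the 22 had an unadjusted p below 0.05 with a positive sign.

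**Figure D2:**
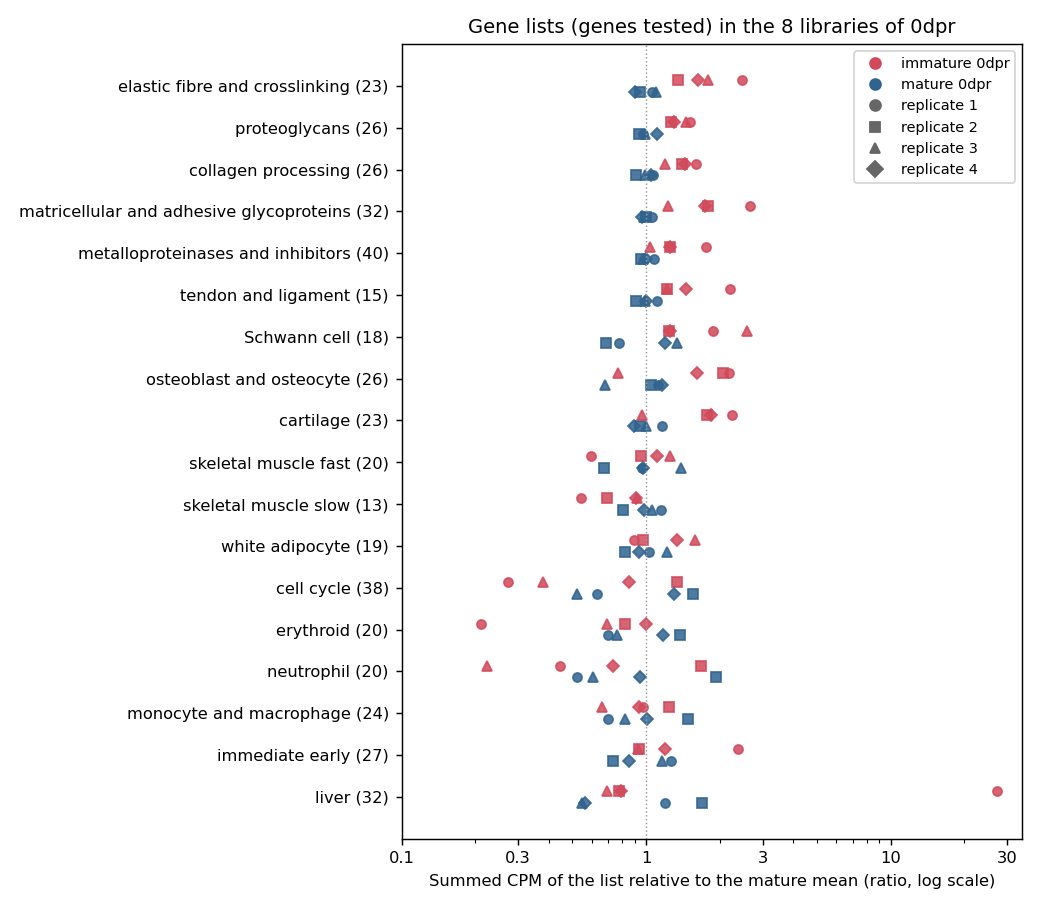
Summed CPM of 18 gene lists in each library of 0dpr divided by the mean of the mature libraries, on a log axis, with immature libraries in red, mature libraries in blue and 1 marker shape per replicate number. For the elastic fibre, proteoglycan, collagen processing and matricellular lists every immature library lies above every mature one, while muscle, adipocyte, cell cycle and blood lists overlap, and immature replicate 1 stands alone in the liver list (14875 CPM).

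Tendon and nerve-sheath genes were higher in part. Tnmd, which encodes tenomodulin, a membrane protein of tenocytes, was at 23.9, 18.9, 22.1 and 26.3 CPM in immature and 5.49, 4.86, 6.32 and 11.7 CPM in mature libraries (log2 fold change 1.69, SE 0.37, adjusted p = 0.0137; without immature replicate 1, 1.67, adjusted p = 0.0454). With Kera it made 2 of 15 tendon and ligament genes called, where 0.571% of all genes were called higher. All 15 had a positive log2 fold change, against 48.0% of all genes (median 0.74, or 0.49 without immature replicate 1). The list summed to 886 to 1596 CPM in the immature and 659 to 805 CPM in the mature libraries. Of 18 Schwann cell genes 2 were higher, among them Pmp22, a peripheral myelin gene. It was at 273, 167, 386 and 188 CPM against 93.0, 92.2, 148 and 142 CPM (log2 fold change 1.09, SE 0.19, adjusted p = 0.00133; without immature replicate 1, 1.06, adjusted p = 0.00691). The Schwann cell list summed to 666 to 1384 CPM in the immature and 369.9 to 716 CPM in the mature libraries, overlapping between ages, and its part in the Pmp22 difference was not tested.

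Fibroblast, cartilage and bone lists held at most 2 edgeR calls each, where 0.571% of all genes were called higher and 0.156% lower. Of 30 fibroblast and progenitor genes 2 were higher, Col14a1 (log2 fold change 0.99, SE 0.20, adjusted p = 0.00775) and Lrrc15, a membrane protein of activated fibroblasts (log2 fold change 1.90, SE 0.42, adjusted p = 0.0178), and Lrrc15 had an adjusted p of 0.131 without immature replicate 1. The list summed to 4848 to 5947 CPM in the immature and 4146 to 4751 CPM in the mature libraries. Of 23 cartilage genes 1 was higher, Col11a1 (log2 fold change 1.95, SE 0.47, adjusted p = 0.0367), which had an adjusted p of 0.157 without immature replicate 1 and 0.0588 with the replicate block. DESeq2 called 3 cartilage genes higher. A positive sign was seen for 20 of the 23, against 48.0% of all genes, and the median was 0.87, or 0.74 without immature replicate 1. The list summed to 443 to 1038 CPM in the immature and 412 to 537 CPM in the mature libraries, with overlap. The cartilage proteoglycan Acan was at 94.9, 46.1, 18.5 and 55.6 CPM against 15.4, 4.12, 2.44 and 10.8 CPM and had an adjusted p of 0.0525 without the block and 0.0301 with it. None of 26 osteoblast and osteocyte genes was called by edgeR or DESeq2 (7 at an unadjusted p below 0.05, 6 of them with a positive sign), and the list median was 0.42, or 0.07 without immature replicate 1. Bglap, which encodes osteocalcin, was at 168, 445, 71.0 and 279.9 CPM against 97.3, 93.9, 74.6 and 80.4 CPM, so that immature replicate 3 was below every mature library while immature replicate 2 was the highest (log2 fold change 1.48, SE 0.65, adjusted p = 0.380). None of 16 osteoclast genes was called by edgeR (2 at an unadjusted p below 0.05), and DESeq2 called 1. When the mean level of the osteoblast and osteocyte list was added to the fit as a covariate, an alternative chosen after the data were seen, 106 of the 121 higher and 27 of the 33 lower genes were still called. This covariate is a single score fitted over all stages. The part of sample make-up in the calls was not tested.

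Beside the collagens, the genes named by the rule and the lists, 11 more genes were higher with all libraries and in each of the 8 fits that left out 1 library, and these were singled out after their values were seen. Bcat1, the cytosolic branched-chain aminotransferase, was at 9.71, 6.78, 5.01 and 9.04 CPM in immature replicates 1 to 4 and at 3.29, 2.00, 2.44 and 2.22 CPM in mature replicates 1 to 4 (log2 fold change 1.61, SE 0.30, adjusted p = 0.00285). Serpinf1, which encodes pigment epithelium-derived factor, a secreted collagen-binding protein needed for normal bone mineral, was at 336, 383, 193 and 335 CPM against 162, 142, 159.8 and 158 CPM (log2 fold change 1.00, SE 0.19, adjusted p = 0.00340). Kdelr3, a receptor that returns chaperones to the endoplasmic reticulum, was at 26.6, 16.4, 14.6 and 17.0 CPM against 8.63, 8.23, 8.86 and 8.61 CPM (log2 fold change 1.11, SE 0.21, adjusted p = 0.00354). For these 3 genes every immature library was above every mature one. Cd276, an immune checkpoint ligand also known as B7-H3, was at 20.9, 14.1, 6.19 and 15.7 CPM against 7.84, 5.49, 4.65 and 5.42 CPM, with overlap (log2 fold change 1.28, SE 0.23, adjusted p = 0.00232). Dclk1, a microtubule-associated kinase, was at 28.8 ± 9.73 CPM against 12.5 ± 2.28 CPM (log2 fold change 1.20, SE 0.22, adjusted p = 0.00184). Olfml2b, a secreted olfactomedin-like protein, was at 84.6 ± 23.6 CPM against 43.0 ± 4.97 CPM (log2 fold change 0.98, SE 0.18, adjusted p = 0.00208). Smaller differences with little spread were seen for Klhl2, an adapter of a ubiquitin ligase, at 38.1, 28.2, 40.3 and 36.3 CPM against 22.0, 22.2, 21.3 and 20.8 CPM (log2 fold change 0.73, SE 0.12, adjusted p = 8.27e-04). The endosomal chloride transporter Clcn5, the membrane protein Ptgfrn, the kinase Map4k4 and the lipid flippase Atp8b2 had log2 fold changes of 1.00, 0.82, 0.55 and 0.57, with adjusted p of 0.00184, 0.00184, 0.00221 and 0.0104.

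Among the genes lower in immature ribs were Ankrd1 of the muscle stress list and Trem2 of the monocyte and macrophage list. Each was the only edgeR call in its list. Of all genes, 0.156% were called lower and 48.0% had a positive log2 fold change. Ankrd1 (ENSMUSG00000024803, chromosome 19, 36111961 to 36120099), an ankyrin repeat protein induced in stressed muscle, was at 2.69, 5.55, 5.64 and 5.98 CPM in immature replicates 1 to 4 and at 12.5, 13.7, 22.7 and 14.4 CPM in mature replicates 1 to 4. Every mature library was more than 2-fold above every immature one (log2 fold change -1.66, SE 0.25, adjusted p = 1.99e-04; without immature replicate 1, -1.47, adjusted p = 0.00258). It was the only call among 15 muscle stress genes under edgeR with 8 libraries, and 7 of the 15 had a positive sign. Of the 15, 2 had a negative sign at an unadjusted p below 0.05 and DESeq2 called 2. The list summed to 3565 to 6632 CPM in the immature and 3689 to 7442 CPM in the mature libraries. Cryab, a small heat shock protein of muscle, was at 385, 481, 669 and 518 CPM against 1046, 625, 928 and 917 CPM and did not pass the test (log2 fold change -0.78, SE 0.23, adjusted p = 0.105).

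Trem2 (ENSMUSG00000023992, chromosome 17, 48346401 to 48354147), a lipid-binding receptor of macrophages and osteoclasts, was at 1.64, 1.85, 2.00 and 1.95 CPM in the immature and at 6.59, 8.11, 2.66 and 9.03 CPM in the mature libraries. The immature values were nearly equal, and mature replicate 3 was the closest to them (log2 fold change -1.80, SE 0.31, adjusted p = 0.00113; without immature replicate 1, -1.74, adjusted p = 0.00973). Gpnmb and Fcgr4, named after their values were seen, were lower as well. Gpnmb, a lysosome-associated membrane glycoprotein of macrophages and osteoclasts, was at 7.62, 8.88, 6.65 and 6.26 CPM against 15.2, 40.8, 20.2 and 48.3 CPM (log2 fold change -2.08, SE 0.48, adjusted p = 0.0246; without immature replicate 1, -2.09, adjusted p = 0.0913). Fcgr4, an activating receptor for IgG on macrophages, was at 2.39, 6.53, 1.55 and 3.20 CPM against 4.55, 11.9, 22.6 and 28.8 CPM, with overlap (log2 fold change -2.33, SE 0.45, adjusted p = 0.00429; without immature replicate 1, -2.20, adjusted p = 0.0362). The 24 monocyte and macrophage genes as a whole summed to 1485 to 2795 CPM in the immature and 1565 to 3319 CPM in the mature libraries, with Trem2 the only call and 9 of 24 positive.

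Apol11a (ENSMUSG00000091650, chromosome 15, 77508271 to 77518051), a member of the apolipoprotein L family, was at 0, 0.740, 1.91 and 1.95 CPM in the immature and 8.63, 28.1, 12.1 and 25.3 CPM in the mature libraries (log2 fold change -3.94, SE 0.69, adjusted p = 0.00170; without immature replicate 1, -3.57, adjusted p = 0.00952). Its paralog Apol11b was also lower (log2 fold change -2.45, SE 0.62, adjusted p = 0.0497; without immature replicate 1, -2.10, adjusted p = 0.200), and reads of these related genes may be split between them by the counting. Scgb2b27, a secretoglobin from a family of similar genes, was at 2.54, 1.60, 1.00 and 1.11 CPM against 4.71, 3.74, 4.21 and 5.70 CPM (log2 fold change -1.57, SE 0.37, adjusted p = 0.0296). Beside the immunoglobulin genes, the antibody joining chain gene Jchain was at 2.99, 52.3, 5.64 and 14.6 CPM against 59.8, 187, 84.8 and 161 CPM (log2 fold change -2.70, SE 0.62, adjusted p = 0.0252; without immature replicate 1, -2.34, adjusted p = 0.127). Without immature replicate 2, the highest immature library, its log2 fold change was -4.00 (adjusted p = 7.46e-04), and the call was also lost without immature replicate 3 or 4 or mature replicate 2 or 4. The 19 plasma cell genes summed to 456 to 602 CPM in the immature and 515 to 785 CPM in the mature libraries with Jchain as the one call, and their part in its difference was not tested. Ccl5, a chemokine of T and natural killer cells, was at 0.299, 2.10, 0.273 and 1.39 CPM against 3.76, 3.87, 3.66 and 5.14 CPM (log2 fold change -2.02, SE 0.42, adjusted p = 0.00856; without immature replicate 1, -1.74, adjusted p = 0.0622; without immature replicate 2, -2.69, adjusted p = 8.14e-04). The 29 T and natural killer cell genes summed to 35.7 to 104 CPM in the immature and 74.8 to 125 CPM in the mature libraries, and 6 of 29 had a positive sign. Cenps, a centromere protein gene named after its values were seen, was at 0.598, 2.96, 0.910 and 1.81 CPM against 110.1, 2.99, 2.33 and 3.47 CPM, so that mature replicate 1 alone carried the difference (log2 fold change -4.23, SE 0.76, adjusted p = 0.00184; without mature replicate 1, -0.89, adjusted p = 0.320; with the replicate block, adjusted p = 0.0958).

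No gene of the cell cycle, erythroid or neutrophil lists was called at an adjusted p below 0.05, although most had a negative sign. Of 38 cell cycle genes, 0 were called by edgeR or DESeq2 and 12 had a negative sign at an unadjusted p below 0.05. Only 2 of the 38 had a positive log2 fold change, against 48.0% of all genes, and the median was -0.57, or -0.30 without immature replicate 1. The list summed to 613, 3008, 850 and 1912 CPM in immature replicates 1 to 4 and to 1420, 3483, 1174 and 2913 CPM in mature replicates 1 to 4, and replicates 2 and 4 were the higher pair at both ages. Under the replicate block, 8 of the 38 were lower, among them the cyclin genes Ccne1 (log2 fold change -1.46, adjusted p = 0.00530) and Ccnb2 (-1.05, 0.0157) and the mitotic kinase gene Aurka (-1.06, 0.00659). With the block and without immature replicate 1, 0 of 38 were called, and without immature replicate 2, 10 were lower. None of 20 erythroid genes was called by either tool (1 at an unadjusted p below 0.05), none had a positive sign, and the median was -0.90, or -0.54 without immature replicate 1. Neutrophil genes had 0 calls of 20 by either tool, 0 at an unadjusted p below 0.05, and sums of 2165, 8102, 1080.5 and 3555 CPM in immature replicates 1 to 4 against 2542, 9347, 2932 and 4587 CPM in mature replicates 1 to 4. The erythroid sums were 4291, 16618, 14092 and 20359 CPM against 14209, 27928, 15438 and 23828 CPM. In the cell cycle, erythroid and neutrophil lists, the immature sum was below the mature sum of the same replicate number for all 4 numbers while the ages overlapped, and with the replicate block 0 erythroid and 0 neutrophil genes were called. Of 11 genes for major histocompatibility complex class II, 0 were called by edgeR, DESeq2 called 1 lower, 7 had a negative sign at an unadjusted p below 0.05 and 10 had a negative sign in all. H2-Eb2 of that list passed with the block (adjusted p = 0.0332) and without immature replicate 2 (adjusted p = 0.0179), and the endothelial gene Esm1 passed with the block (4.48, 8.26, 2.82 and 5.29 CPM against 8.47, 14.1, 9.53 and 17.4 CPM, adjusted p = 0.0248, or 0.0530 without the block).

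Muscle, fat and energy metabolism lists overlapped between the ages. None of 20 fast muscle, 13 slow muscle, 19 white adipocyte, 13 brown adipocyte and 34 oxidative phosphorylation genes was called by edgeR or DESeq2, and 1, 4, 1, 4 and 1 of them respectively had an unadjusted p below 0.05. Slow muscle genes were all 13 negative in sign (median -0.39, or -0.23 without immature replicate 1), with sums of 4511 to 7630.3 CPM in the immature and 6709 to 9596 CPM in the mature libraries, lower in the immature library of each of the 4 replicate numbers, and 0 called with the replicate block. Brown adipocyte genes summed to 3056 CPM in mature replicate 1 and to no more than 1450 CPM in any other library. Genes of the interferon response (30) and of complement (26) had 0 calls by either tool, with 0 and 5 at an unadjusted p below 0.05, and the complement median went from 0.33 to -0.06 without immature replicate 1. Across all 48 lists, which hold 1103 tested genes, 50 were higher and 4 lower, where 0.571% and 0.156% of all genes were. Of the called genes, 59 higher genes stood in no list and were no collagen.

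A set of calls rested on immature replicate 1. Cyp3a11, a drug-metabolizing cytochrome P450 of liver, was at 186, 0, 0 and 0.139 CPM in immature replicates 1 to 4 and at 0.157, 1.37, 0.886 and 0 CPM in mature replicates 1 to 4. Its log2 fold change turned from 6.17 with all libraries (adjusted p = 0.0401) to -3.61 without immature replicate 1 (adjusted p = 0.602). Of the 32 liver genes, all were positive with all 8 libraries, with a median of 3.66, and the median was -4.02 without immature replicate 1, when 2, Ambp and Apob, were called lower. Rgs16, a regulator of G-protein signalling, was at 88.9, 3.08, 3.91 and 2.36 CPM against 4.71, 1.25, 0.997 and 2.92 CPM and went from a log2 fold change of 3.34 to 0.41. Tkfc, the triose kinase of fructose metabolism, was at 74.8, 5.05, 5.19 and 3.62 CPM against 4.08, 4.62, 4.88 and 4.17 CPM and went from 2.31 to 0.07. In the same library the stress-induced transcription factor gene Atf3 was at 82.3 CPM, with 14.8 to 22.6 CPM in the other immature libraries and 15.1, 11.5, 14.5 and 6.39 CPM in the mature ones, and the difference went from 1.55, adjusted p = 0.0273 to 0.71, adjusted p = 0.460. Egfr, the epidermal growth factor receptor gene, went from 1.20, adjusted p = 0.00984 to 0.50, adjusted p = 0.177, and Elovl5, a fatty acid elongase gene, from 0.92, adjusted p = 0.0246 to 0.38, adjusted p = 0.351. Over the 154 called genes, 7 moved by more than 1.5-fold without this library, 5 of them higher (Cyp3a11, Rgs16, Tkfc, Atf3 and Egfr) and 2 lower, both immunoglobulin genes. The median log2 fold change of every matrix list was also smaller without this library. It went from 0.56 to 0.37 for elastic fibre, 0.64 to 0.40 for proteoglycan and 0.55 to 0.31 for matricellular genes.

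**Figure D3:**
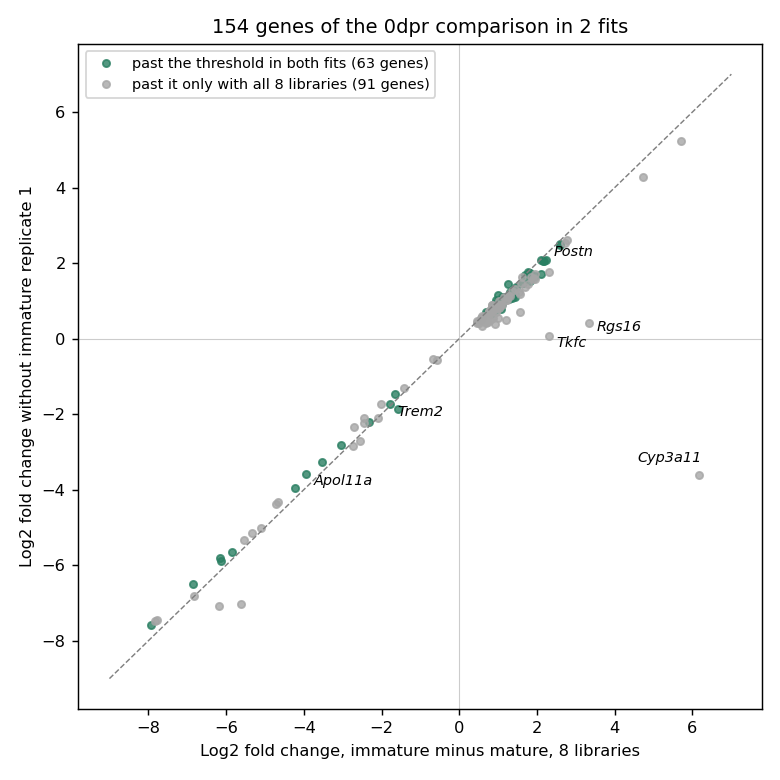
Log2 fold change (immature minus mature) of the 154 called genes with all 8 libraries (horizontal axis) and without immature replicate 1 (vertical axis), with genes past the threshold in both fits in green (63) and with all 8 libraries only in grey (91), and a dashed line of equality. All but 7 genes lie within 1.5-fold of the line. Among those 7, Rgs16 and Tkfc lie near 0 on the vertical axis and Cyp3a11 lies below 0.

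The same genes were then followed in other samples of the series. Of the 121 genes higher at 0dpr, 111 had a positive age difference in the unresected rib, where 49.7% of all genes did, and 32 were called there (0.358% of all genes were called higher at baseline, and 0.226% lower). At 2dpr 103 were positive, where 54.0% of all genes were, and 25 were called (0.457% of all genes were called higher, and 0.17% lower). By 5dpr 94 were positive, where 46.4% of all genes were, and 0 were called, at a stage where edgeR called 0% of genes in either direction (1081 at an unadjusted p below 0.05). At 14dpr 48 of 121 were positive, where 48.2% of all genes were, and 0 were called, with 0.00943% of genes called. The median log2 fold change of the 121 was 0.57 at baseline, 1.07 at 0dpr, 0.51 at 2dpr, 0.16 at 5dpr and -0.07 at 14dpr, and the 0dpr value is the one by which they were chosen. Of the 33 genes lower at 0dpr, 29, 25, 26 and 19 were negative at baseline, 2, 5 and 14dpr, where 50.03%, 45.8%, 53.5% and 51.6% of all genes were, and 8, 2, 0 and 0 were called lower there. The mature 5dpr group had 3 libraries.

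**Figure D4:**
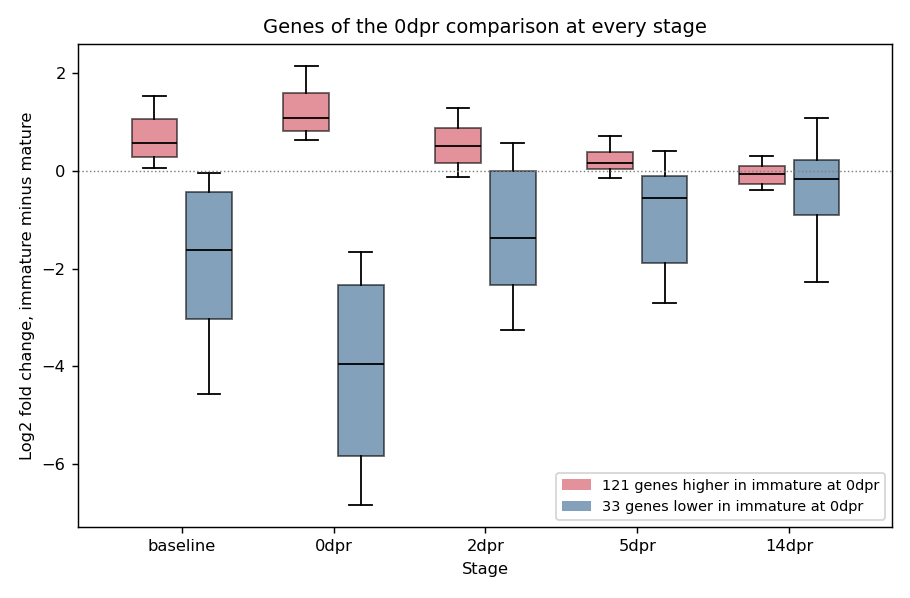
Log2 fold change (immature minus mature) at each stage of the 121 genes higher (red) and 33 genes lower (blue) in immature mice at 0dpr, with boxes from the 25th to the 75th percentile, a line at the median and whiskers from the 10th to the 90th percentile over genes. The medians of the red boxes are 0.57, 1.07, 0.51, 0.16 and -0.07 from baseline to 14dpr, and the 0dpr boxes show the values by which the genes were chosen.

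Several named genes are given at the other stages. Rian was higher in immature mice at baseline (75.8 ± 13.6 CPM against 27.1 CPM, adjusted p = 0.00225) and at 2dpr (161 ± 25.5 CPM against 79.8 CPM, adjusted p = 0.0413), and its immature and mature means were 351 and 269 CPM at 5dpr (adjusted p = 1). Eln was likewise higher at baseline (log2 fold change 1.77, adjusted p = 0.00473) and at 2dpr (1.497, adjusted p = 0.0148), and the log2 fold change was 0.28 at 5dpr. Postn was higher at baseline (1323 against 344 CPM, adjusted p = 0.00481) and did not pass the test at 2dpr (1393 against 945 CPM, adjusted p = 0.51). Igf1 did not pass the test at baseline (66.6 against 50.3 CPM, adjusted p = 0.425), a stage with its own libraries. Ankrd1 was lower in immature mice at 2dpr, when its means were 86.7 and 275 CPM (log2 fold change -1.67, adjusted p = 1.00e-04), and was at 5.61 against 7.50 CPM at baseline (adjusted p = 0.548). Apol11a was lower at baseline (1.66 against 39.5 CPM, adjusted p = 5.57e-04) and had means below 3 CPM in both ages from 2dpr on.

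Whether the age difference itself changed between stages was tested as an interaction. Against baseline, 3 genes were called (0.0141%), Scgb2b27, Mucl2 and Apold1, with 1712 genes at an unadjusted p below 0.05. Scgb2b27 was 5.59 CPM in immature and 1.70 CPM in mature mice at baseline, and 1.56 and 4.59 CPM at 0dpr, so the sign turned (interaction -3.29, SE 0.51, adjusted p = 0.00526). Mucl2, a mucin-like gene whose reads were at 26.9, 10.5, 6.19 and 10.7 CPM and 36.4, 25.4, 32.2 and 20.6 CPM at 0dpr, had an interaction of the same sign (-3.06, SE 0.54, adjusted p = 0.023), although its ages overlapped at 0dpr and the 0dpr difference did not pass the test (log2 fold change -1.10, adjusted p = 0.198). Apold1, an endothelial early response gene, had an interaction of 2.11 (adjusted p = 0.0371) that was not called without immature replicate 1 (1.64, adjusted p = 0.157). Against 2dpr, 13 genes were called (0.0613%), 5 without immature replicate 1 and 101 with the replicate block. Lox was among them, at 397 and 358 CPM at 2dpr (interaction 1.19, SE 0.24, adjusted p = 0.0421), and this call was lost without immature replicate 1 (adjusted p = 0.122). Trem2 was at 164 and 141 CPM at 2dpr and at 1.86 and 6.60 CPM at 0dpr (interaction -2.01, SE 0.37, adjusted p = 0.0279; without immature replicate 1, adjusted p = 0.0742). The 0dpr libraries are shared by both interactions and by the main comparison.

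The promoters of the called genes were searched for 7 short motifs as a description of what these genes share in sequence. The set of RefSeq promoters used here (GRCm38.p6) was partial and covered 13163 of 21197 tested gene names. It held promoters of 86 of the 121 higher and 16 of the 33 lower genes, 100 and 17 windows of 300 bases from 250 before to 50 after the start. Among the higher genes 67% of windows held the GC box GGGCGG on either strand, against 56% of 16690 windows of all tested genes. The CCAAT box was in 44% against 37.1%, the TATA box TATAAA in 11% against 8.46% and the E-box CANNTG in 58% against 66.1%. The AP-1 motif TGACTCA was in 6% against 4.26%, the RUNX motif TGTGGT in 15% against 13.5% and the AP-2 motif GCCNNNGGC in 27% against 23.1%. For the 17 windows of lower genes the shares in the order GC box, CCAAT, TATA, E-box, AP-1, RUNX and AP-2 were 23.5%, 35.3%, 5.88%, 94.1%, 11.8%, 35.3% and 5.88%, each over few windows. A match is no evidence of binding.

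The promoter set used here held entries for 10 of the 17 named genes that were higher. Among them, 6 windows of the 100 bases before a start held a GC, CCAAT or TATA box, and they are printed to show how these proximal promoters differ. The sequences are from RefSeq, run 5′ to 3′ on the strand of the gene, and have the matched box in capitals (in Prss35 the GC box lies on the opposite strand). Fstl1 (chr16:37776955-37777054, plus strand) holds a pair of GC boxes, Postn (chr3:54361007-54361106, plus strand, the second of its listed starts) a TATA box, C1qtnf6 (chr15:78529652-78529751, minus strand) a GC box, Prss35 (chr9:86743533-86743632, plus strand) a GC box, C1qtnf3 (chr15:10952232-10952331, plus strand) a TATA box that abuts the start and Kera (chr10:97607105-97607204, plus strand) a CCAAT box.
Fstl1: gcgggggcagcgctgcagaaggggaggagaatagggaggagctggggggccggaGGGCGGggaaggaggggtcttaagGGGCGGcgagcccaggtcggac
Postn: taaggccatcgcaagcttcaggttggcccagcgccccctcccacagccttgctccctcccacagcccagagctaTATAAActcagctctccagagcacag
C1qtnf6: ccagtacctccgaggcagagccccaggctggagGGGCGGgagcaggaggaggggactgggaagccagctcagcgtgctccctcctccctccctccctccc
Prss35: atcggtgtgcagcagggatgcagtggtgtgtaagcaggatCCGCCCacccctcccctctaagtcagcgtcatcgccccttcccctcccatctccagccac
C1qtnf3: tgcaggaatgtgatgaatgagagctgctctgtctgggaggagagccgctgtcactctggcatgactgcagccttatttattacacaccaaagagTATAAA
Kera: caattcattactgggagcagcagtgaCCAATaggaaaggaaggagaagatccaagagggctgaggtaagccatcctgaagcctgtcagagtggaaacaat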

How the data were processed

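RNAseq of whole rib tissue was analysed from 39 of the 40 samples. Per the labels and the study's methods, the authors made stranded TruSeq libraries, sequenced them on a NovaSeq in separate runs (the run of each library is not given in the sources used here) and aligned the reads to GRCm38 with STAR 2.5.2a. The authors deposited gene counts, raw and after a filter on low counts, and a normalized signal, which equals TMM-scaled CPM made from the filtered counts (largest relative difference 4.99e-15). Mature 5dpr replicate 2 was not analysed here. No column of the count table was left unmatched.

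Counts of 21204 genes from the 39 libraries were fitted with edgeR 4.0.16 (R 4.3.3, TMM factors, quasi-likelihood, 1 coefficient per group) and tested for immature minus mature at each stage and for interactions, with Benjamini-Hochberg adjustment over all genes and a threshold of 0.05. The shared fit was used because 4 against 4 libraries leave few degrees of freedom. Its spread is estimated over all groups, so the p-values may understate the spread at 0dpr. Whether they do was not tested. Log2 values are edgeR coefficients, and CPM are given per library with mean ± SD. Counts of 0dpr replicates differed by more than sampling noise (chi-square per gene 12.0 to 117). Deviations of same-numbered immature and mature 0dpr libraries correlated at 0.30, 0.18, 0.23 and 0.20. Pairs with different numbers ranged from -0.37 to 0.35, and immature replicate 2 correlated best with mature replicate 4. The labels give replicate numbers but no pairing, and these values do not settle whether the samples were paired by number. The main fit therefore does not pair them, and a fit blocked on the replicate number is given as an alternative where it changes a call. Counts of 21204 genes were also simulated with a common 0dpr mean for both ages and the real library sizes. The 200 changed genes were drawn from those with a 0dpr mean of at least 1 CPM. Of these, the comparison found 55% of genes changed 2-fold and 81% of genes changed 4-fold, and 7 of 143 calls were unchanged genes. Simulated libraries were independent, with no liver transcripts confined to 1 library and no link between same-numbered libraries, so the rates may not hold for the real comparison.

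The comparison, the gene lists and the rule for named genes were chosen with earlier results of these data known. By that rule, called genes with a mean of at least 1 CPM, no overlap between ages and a call also without immature replicate 1, leaving out collagens, immunoglobulins and unnamed genes, were named up to 12 by adjusted p and 12 by fold if higher, and all if lower. Of each list, called members in either fit (at most 6) and at most 3 other abundant members could be named. Alternatives were DESeq2 1.42.0, limma 3.58.1 (voom with sample quality weights), other scalings and filters, covariates, the block and leaving out each library. Promoters came from RefSeq. Some genes are not reported here. No explanation was tested.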

Additional observations from a re-analysis of the deposited data

Results flagged for a closer look

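In 270 groups of 4 libraries, the highest or lowest value was set against Dixon's 95% critical value for its gap to the next library as a share of the range. This marked 14 groups, and chance marks about 1 in 20. The share marked was thus near that of chance. Among the marked groups, immature replicate 1 was the highest for Cyp3a11 (0.999), the liver list (0.997), Rgs16 (0.982), Tkfc (0.978) and Atf3 (0.885). It was also the lowest for Ankrd1 (0.868), at 2.69 CPM against 5.55 to 5.98 CPM in the other immature libraries. Cyp3a11, Rgs16, Tkfc and Atf3 are given above as calls that rested on this library. How often it was marked follows in part from that choice of genes. Lum was highest in immature replicate 2 (0.925), at 509 CPM against 379 to 389 CPM in the others. Among mature libraries, replicate 1 was the highest for Cenps (0.989) and Adamts2 (0.898), replicate 2 the lowest for Vcan (0.867), replicate 3 the highest for Map4k4 (0.862) and for the sum of 3 skin and mammary epithelium genes (0.846) and replicate 4 the highest for Ccl5 (0.858) and for 22 heat shock and unfolded protein genes (0.926), at 5708 CPM against 4255 to 4363 CPM.

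The age difference at 0dpr differed from that at another stage for some named genes by an edgeR interaction term. Against baseline this held for Scgb2b27 (-3.29 on the log2 scale), Mucl2 (-3.06) and Apold1 (2.11). Against 2dpr it held for Lox (1.19), Klhl2 (0.998, adjusted p = 0.0124), Trem2 (-2.01) and Scgb2b27 (-2.60, adjusted p = 0.0405). No cause of these differences was tested.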

How the results depend on the processing

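The counts of called genes depended on the method more than the signs did: for the 121 higher and 33 lower genes, the sign was the same under every alternative in which they were tested, except Cyp3a11, which turned from 6.17 to -3.61 without immature replicate 1, to -3.58 with the block without it and to -0.74 under voom with sample quality weights (6.87 at most, without mature replicate 2). DESeq2 called 255 higher and 94 lower, voom 56 and 21, and an unadjusted p below 0.01 marked 612 and 284. Only the 8 libraries of 0dpr gave 0 and 0 (smallest adjusted p 0.055). The replicate block gave 142 and 99 (58.9% of calls higher, against 78.6% without it), and the block without immature replicate 1, chosen after the data were seen, gave 38 and 18. Leaving out 1 library gave 51 to 324 higher and 17 to 172 lower. Immature replicate 1 gave the lowest of both ranges and immature replicate 2 the highest, and without mature replicate 2 the higher count was 63. Of calls in lists, 50 higher and 4 lower with all libraries, leaving out 1 library gave 24 to 87 and 3 to 20, the block 14 lower, the block without immature replicate 1 19 higher, and DESeq2 8 lower. The interaction against baseline gave 28 genes by DESeq2 (3 by edgeR). That against 2dpr gave 13, with 111 by DESeq2, 101 with the block and 5 without immature replicate 1. Of the genes in the text, 30 lost the call without immature replicate 1, besides Cyp3a11, and 30 without mature replicate 2. The block changed the call of Col11a1, Cyp3a11, Rgs16, Tkfc and Cenps (lost) and of Ccne1, Ccnb2, Aurka, H2-Eb2, Esm1 and Acan (gained), and of no other gene in the text. The cause of these shifts was not tested.

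At 6989381 to 13862053 counts per library, simulated 2-fold changes were found in 55% of the changed genes and 4-fold changes in 81%. The changed genes had a 0dpr mean of at least 1 CPM, and the simulated libraries were independent and lacked the liver transcripts of immature replicate 1.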
